A study of Mus musculus with 2 samples.

Results

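The data set holds the Klf and Sox genes of cultures grown from mammary basal cells. A library of a culture grown alone (ctrl) was compared with a library of a culture grown with M2-like macrophages (M2). Members were all genes of the deposited table whose symbol is Klf or Sox followed by a number, with Sox9 and Sox10 left out by that rule, and 34 of 49492 genes met it, namely 17 Klf and 17 Sox genes. Wild-type basal cells from the mammary glands of adult mice were sorted and grown as colonies in a matrix gel, in a medium with EGF and an insulin, transferrin and selenium supplement that both groups received. The ctrl culture had no treatment. The M2 culture shared its wells with bone marrow-derived macrophages that IL-4 and IL-13 had polarised, held apart from the gel in a membrane insert and replaced during a co-culture of 11 to 14 days. Each group is 1 library, of 26912610 reads in ctrl and 29413844 reads in M2, so the variation from culture to culture is unknown, and each test compares these libraries and not the conditions. The number of animals behind each library is not given in the sources used here. The seeded cells were sorted as basal, while by flow cytometry the paper found mostly luminal cells and a smaller share of basal cells in such colonies. It reported a lower share of luminal cells and a higher share of basal cells after co-culture.

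Klf proteins (Krüppel-like factors) carry zinc fingers at the C-terminal end with which they bind GC boxes and CACCC boxes, and they differ in the partners that their N-terminal ends recruit. Klf1, Klf2 and Klf4 to Klf7 mostly activate transcription, Klf3, Klf8 and Klf12 repress it with CtBP, and Klf9, Klf10, Klf11, Klf13, Klf14 and Klf16 repress it with Sin3A. Sox proteins bind the minor groove of DNA through an HMG box and bend it, and are divided by sequence into groups B to H. In epithelia, Klf4 and Klf5 are known for their opposing parts in differentiation and growth, and Sox4 and Sox11 (group C) for their role in immature and migrating cells.

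Of the 34 members, 26 had at least 10 reads summed over both libraries and were tested, 15 Klf and 11 Sox genes. A gene was called when its reads differed by at least 2-fold after scaling and the adjusted p of an exact binomial test was under 0.05 over all 19233 genes tested. The members differed about as often as other genes. Sox11 and Klf9 were called higher in M2, where 8.16% of all genes tested were called higher, and Klf2 and Klf12 were called lower, where 6.55% were. Together 4 of 26 members (15.4%) were called in either direction, beside 14.7% of all genes. The median log2 fold difference (M2 over ctrl) was -0.12 over the 15 Klf genes, 0.12 over the 11 Sox genes and -0.0032 over all genes tested. Less than a 1.5-fold difference was seen for 9 of the 15 Klf and 6 of the 11 Sox genes, beside 13212 of all 19233 genes tested.

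**Figure D1:**
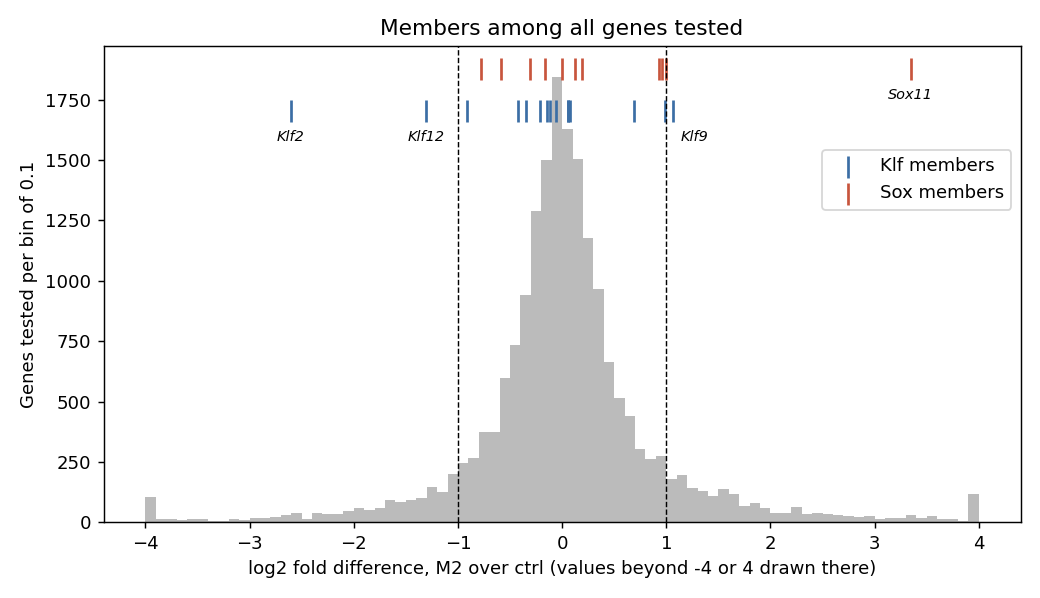
Histogram of the log2 fold difference (M2 over ctrl) of all 19233 genes tested, in bins of 0.1 on the horizontal axis and number of genes on the vertical axis. Ticks above it mark the Klf (blue) and Sox (red) members, and dashed lines the 2-fold threshold, with values beyond 4 in either direction drawn at 4; most ticks stand over the bulk of the genes, and Sox11 at 3.35 and Klf2 at -2.60 stand apart from the other members.

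The sequences before the start of the called genes are shown because these are the members that differed most, and because the Klf and Sox proteins bind short motifs of this kind. They are 200 bases that end at the RefSeq start, 5′ to 3′ on the strand of the gene, from RefSeq on GRCm38.p6, except that the window of Klf2 ends 29 bases earlier, before its annotated exon. The RefSeq starts of Sox11 and Klf12 lie somewhat upstream of the gene ends in the deposited table. Capitals mark a GC box (GGGCGG on either strand), a CACCC box (CACCC on either strand), a SOX core (AACAAT on either strand) or a MEF2 site.
Sox11 (chr12:27342719-27342918, minus strand): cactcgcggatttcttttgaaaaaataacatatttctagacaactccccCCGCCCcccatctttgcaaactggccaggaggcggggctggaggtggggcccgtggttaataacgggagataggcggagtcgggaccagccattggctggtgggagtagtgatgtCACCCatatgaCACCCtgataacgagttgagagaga
Klf2 (chr8:72318833-72319032, plus strand): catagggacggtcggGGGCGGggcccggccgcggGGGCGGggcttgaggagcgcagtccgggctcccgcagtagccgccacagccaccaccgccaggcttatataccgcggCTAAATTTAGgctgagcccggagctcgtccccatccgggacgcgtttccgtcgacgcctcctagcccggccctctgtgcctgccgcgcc
Klf9 (chr19:23141026-23141225, plus strand): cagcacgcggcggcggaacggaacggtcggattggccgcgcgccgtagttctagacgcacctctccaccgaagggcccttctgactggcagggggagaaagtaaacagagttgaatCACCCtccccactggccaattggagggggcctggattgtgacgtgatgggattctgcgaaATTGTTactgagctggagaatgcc
Klf12 (chr14:100149797-100149996, minus strand): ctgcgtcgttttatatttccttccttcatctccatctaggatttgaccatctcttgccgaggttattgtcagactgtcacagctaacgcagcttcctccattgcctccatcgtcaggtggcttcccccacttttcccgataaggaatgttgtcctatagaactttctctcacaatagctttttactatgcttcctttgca

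The 4 stretches differed in the motifs they held. That of Klf2 was rich in G and C (72.5%) and held 2 GC boxes and 1 MEF2 site. That of Sox11 held 2 CACCC boxes and 1 GC box, and that of Klf9 1 CACCC box and 1 SOX core. None of the motifs searched was found in that of Klf12, where 45% of the bases were G or C. RefSeq gave such a sequence for 26 members, and the motifs were counted over the 250 bases before each start, with overlapping matches kept. Over this longer window Klf2 and Klf12 held 1 CACCC box each. A CACCC box stood in 10 of 13 Klf genes and 4 of 13 Sox genes, beside 51.3% of 27025 genes. A GC box stood in 10 of 13 Klf genes and 7 of 13 Sox genes, beside 32.9% of all genes. The windows of members also held more G and C, with a median of 64.8% in Klf and 65.6% in Sox genes beside 52% in all genes. A SOX core was found in 2 of 13 Klf genes and 0 of 13 Sox genes, beside 9.65% of all genes. In the exact form searched, the MEF2 site was found in Klf2 alone among the members and in 0.518% of all genes. A match describes the sequence and does not show that a factor was bound.

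Among the Klf activators, Klf2, which keeps endothelial cells and lymphocytes quiescent, differed most. Klf2 (chromosome 8, 72319033 to 72321656, GRCm38) had 341 reads in ctrl against 58 in M2, or 6.72 and 1.09 RPKM (reads scaled to the length of the gene model in kilobases and to the size of the library, computed from the counts). The difference was 6.08-fold, a log2 value of -2.60 with a 95% counting interval of -3.05 to -2.22 (adjusted p = 7.65e-52, exact binomial test). In the other direction, Klf7, which is needed for the outgrowth of neurons, had 3578 reads in ctrl against 6070 in M2, or 16.02 and 25.9 RPKM. Its log2 value of 0.69 (0.63 to 0.75; adjusted p = 3.17e-117, exact binomial test) was short of the 2-fold threshold.

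Klf6, Klf5 and Klf4, activators with high levels, differed little. Klf6, which is induced by injury and growth factors, had 13094 and 12463 reads in ctrl and M2, and its level per length was the highest of the family, at 113 and 103 RPKM. Its log2 fold difference was -0.14 (-0.18 to -0.10; adjusted p = 4.27e-14, exact binomial test). Klf5, a growth-promoting factor of basal and progenitor cells, had 1844 and 1524 reads, 39.0 and 30.7 RPKM, and a value of -0.34 (-0.44 to -0.25; adjusted p = 2.61e-11, exact binomial test). Klf4, known for barrier formation in skin and gut, had 1588 and 1435 reads, 19.0 and 16.3 RPKM, and a value of -0.22 (-0.32 to -0.11; adjusted p = 0.000127, exact binomial test). At this depth such small differences pass the adjusted p alone, and none of these genes was called. Klf1, the erythroid factor, had 8 and 4 reads and a value of -0.92, and its interval of -3.25 to 0.83 does not fix a direction. Summed per length, the 6 activators stood at 194 RPKM in ctrl against 177 in M2, a log2 ratio of -0.13 (-0.16 to -0.10). The direction of this sum is not fixed, since reads summed without division by length gave 0.0064 (-0.021 to 0.034).

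Among the Sin3A-binding repressors, Klf9 and Klf10 were each about 2-fold higher in M2 and the rest differed less. Klf9 (chromosome 19, 23141226 to 23166911), a gene that glucocorticoids induce, had 238 reads in ctrl against 524 in M2, or 2.66 and 5.57 RPKM. Its log2 fold difference was 1.07 (0.85 to 1.30; adjusted p = 7.78e-22, exact binomial test). This call rests on the scaling, because with total reads outside the mitochondrial genes as library size the value was 0.996, just under 2-fold. Klf10 (chromosome 15, 38294413 to 38300707), an early target of TGF-β, lay just on the other side of the threshold with a value of 0.99 (0.90 to 1.09; adjusted p = 4.91e-102, exact binomial test). It had 1372 reads in ctrl against 2862 in M2, or 16.4 and 32.6 RPKM. Its reads were more than 5 times those of Klf9 in each library, so that the reads fix its value more closely than that of Klf9, which was called.

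The other members of this subgroup differed less. Klf13, which regulates chemokine genes in T cells, had 4232 reads in ctrl against 3317 in M2, 20.5 and 15.3 RPKM, and a log2 value of -0.42 (-0.49 to -0.35; adjusted p = 1.92e-35, exact binomial test). Klf11, close to Klf10 in sequence, had 1304 and 1426 reads and a value of 0.06 (-0.05 to 0.17). Klf16 had 559 and 612 reads and a value of 0.06 (-0.11 to 0.23). Klf14 had 0 reads in both libraries, which allows up to 0.109 CPM (reads scaled to the size of the library alone) in ctrl and 0.104 CPM in M2. Summed per length, the subgroup stood at 58.4 RPKM in ctrl against 73.1 in M2, a log2 ratio of 0.33 (0.28 to 0.37), and summed reads gave 0.11 (0.07 to 0.16). Without Klf10, a sum added after seeing the data, the subgroup stood at 41.95 and 40.5 RPKM, a log2 ratio of -0.05.

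The CtBP-binding repressors were led by Klf3, which restrains fat and blood cell genes and had 3871 and 3909 reads in ctrl and M2 with a log2 value of -0.06 (-0.12 to 0.01). Klf12 (chromosome 14, 99874486 to 100149764), known as a repressor of the AP-2α gene, was called lower, with 157 reads in ctrl against 66 in M2, or 3.08 and 1.23 RPKM. Its log2 value was -1.31 (-1.76 to -0.90; adjusted p = 3.36e-10, exact binomial test). Klf8 had 90 and 87 reads and a value of -0.12 (-0.56 to 0.32). Summed per length, the 3 genes stood at 16.2 RPKM in ctrl against 13.9 in M2. Of the genes put in none of these subgroups, Klf15, a metabolic factor of liver and muscle, had 18 and 20 reads and a log2 value of 0.08 (-0.91 to 1.09), and Klf17 had 1 read in each library.

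**Figure D2:**
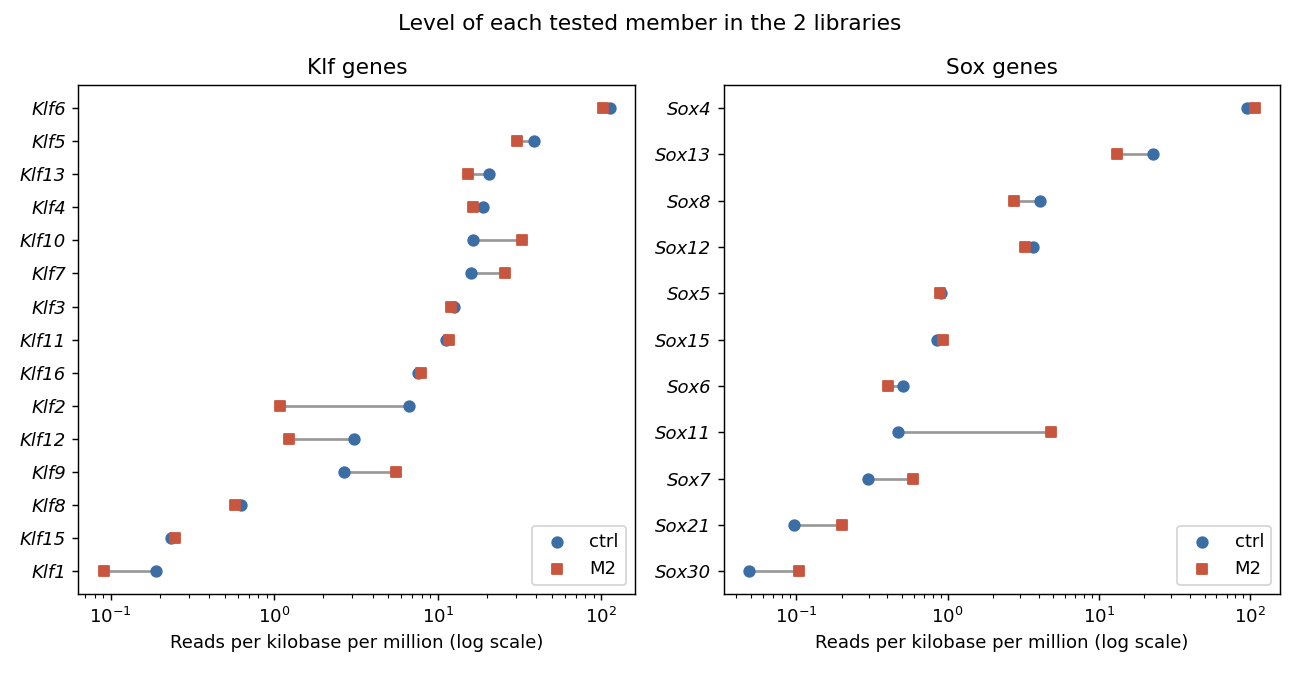
Level of each tested member in RPKM (log scale) in the ctrl library (blue circles) and the M2 library (red squares), ordered by the level in ctrl, with 1 value per library and no error bar. Klf6 and Sox4 have the highest levels of their families in both libraries, and the widest gaps are those of Klf2, Klf12 and Sox11.

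Because most of the Klf reads come from a few genes, the composition of the family was compared as well. The total of the 17 Klf genes was nearly level, 269 RPKM in ctrl against 264 in M2, a log2 ratio of -0.03 (-0.05 to -0.0015). Its direction is not fixed either, since it was 0.02 when reads were summed without division by length. Klf6 made up 42.1% of the total in ctrl and 38.9% in M2, and Klf5 14.5% and 11.6%. Klf10 moved from the fifth place, with 6.10%, to the second, with 12.4%, and Klf7 went from 5.96% to 9.81%. Klf13 went from 7.61% to 5.79% and Klf4 from 7.05% to 6.19%. In ctrl the levels of Klf10 and Klf7, of Klf16 and Klf2, of Klf12 and Klf9, and of Klf15 and Klf1 did not differ beyond counting error. In M2 this was so for Klf10 and Klf5, Klf3 and Klf11, Klf12 and Klf2, and Klf15 and Klf1. Gene models merge all annotated exons, so a level per length depends on the annotation of each gene.

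**Figure D3:**
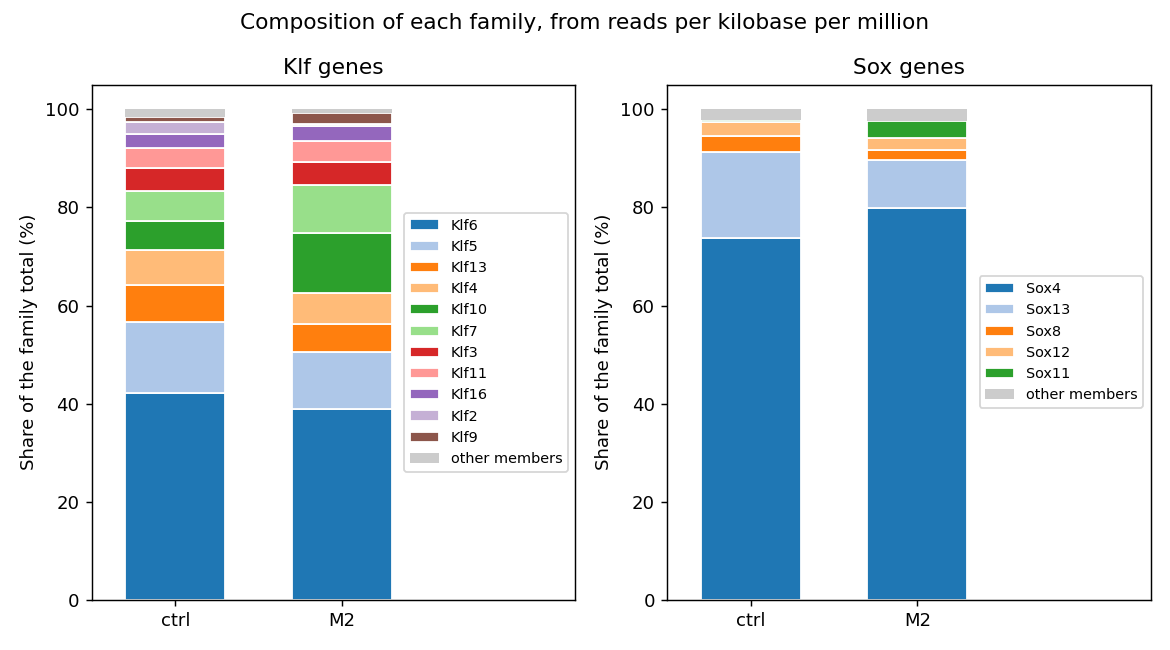
Share of each gene in the summed RPKM of its family, in percent, for the ctrl and the M2 library. Genes under 2% in both libraries are drawn together in grey; the Klf bars show wider segments for Klf10 and Klf7 in M2, and the Sox bars a narrower Sox13 and a Sox11 segment that is thin in ctrl, at 0.367%.

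Among the Sox genes, Sox11 differed most of all members. Sox11 (chromosome 12, 27334264 to 27342574), a factor of embryonic and neural progenitors, had 108 reads in ctrl against 1163 in M2, or 0.473 and 4.86 RPKM. This was a 10.2-fold difference, a log2 value of 3.35 (3.07 to 3.66; adjusted p = 1.37e-211, exact binomial test), and 98.9% of all genes tested had a lower value. Its place among the Sox genes went from the eighth to the third. In ctrl its level and that of Sox6, 0.503 RPKM, did not differ beyond counting error. Its close relatives of group C did not follow. Sox4 (chromosome 13, 28948919 to 28953713), which acts downstream of TGF-β in epithelial cells, had 12518 and 14946 reads, 95.04 and 108.16 RPKM, and a log2 value of 0.19 (0.15 to 0.22; adjusted p = 1.04e-25, exact binomial test). Sox12 had 447 and 418 reads and a value of -0.17 (-0.36 to 0.03).

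Sox4 gave 73.7% of the summed level of the 17 Sox genes in ctrl and 79.9% in M2, so the sum of group C, 99.2 and 116 RPKM, was mostly Sox4. The share of Sox11 was 0.367% in ctrl and 3.59% in M2. The total of all Sox genes was 129 RPKM in ctrl against 135 in M2, a log2 ratio of 0.07 (0.04 to 0.10). That ratio was 0.01 without the scaling factors.

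All 3 genes of group D, whose proteins lack a domain for activation or repression of their own and work with partners, had negative values, that of Sox5 close to 0, and none was called. Sox13, the second of the family in both libraries, had 2692 reads in ctrl against 1649 in M2, 22.7 and 13.3 RPKM, and a log2 value of -0.78 (-0.87 to -0.69; adjusted p = 4.39e-67, exact binomial test). Its share of the Sox total went from 17.6% to 9.80%. Sox6 had 205 and 173 reads and a value of -0.31 (-0.61 to -0.015), and Sox5 had 355 and 371 reads and a value of -0.0058 (-0.22 to 0.21). The sum of the group went from 24.1 to 14.6 RPKM, a log2 ratio of -0.73 (-0.81 to -0.65), and was mostly Sox13. Sox5 and Sox6 together, likewise summed after seeing the data, had 1.40 and 1.30 RPKM, a log2 ratio of -0.11. Sox8, the member of group E that the rule kept, had 352 and 246 reads and a value of -0.58 (-0.83 to -0.35).

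The other Sox groups were represented by few reads. Of the endothelial group F, Sox7 had 27 reads in ctrl against 56 in M2 and a log2 value of 0.96 (0.30 to 1.70; adjusted p = 0.00677, exact binomial test). Sox18, with 8 and 1 reads, was below the minimum for a test, and Sox17 had 0 in both libraries. Sox21 had 10 and 22 reads and a log2 value of 0.99 (-0.07 to 2.31). Sox15 had 20 and 23 reads and a value of 0.12 (-0.80 to 1.07), and Sox30, a testis factor, 4 and 9 reads and a value of 0.93 (-0.74 to 3.25), so the intervals of these genes included 0. Of the stem cell and neural group B, Sox1 and Sox2 had 0 reads in both libraries, Sox3 had 1 read in ctrl and Sox14 1 read in M2. A count of 0 does not exclude levels up to 0.109 CPM in ctrl and 0.104 CPM in M2. Intervals and these limits cover counting error only.

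**Figure D4:**
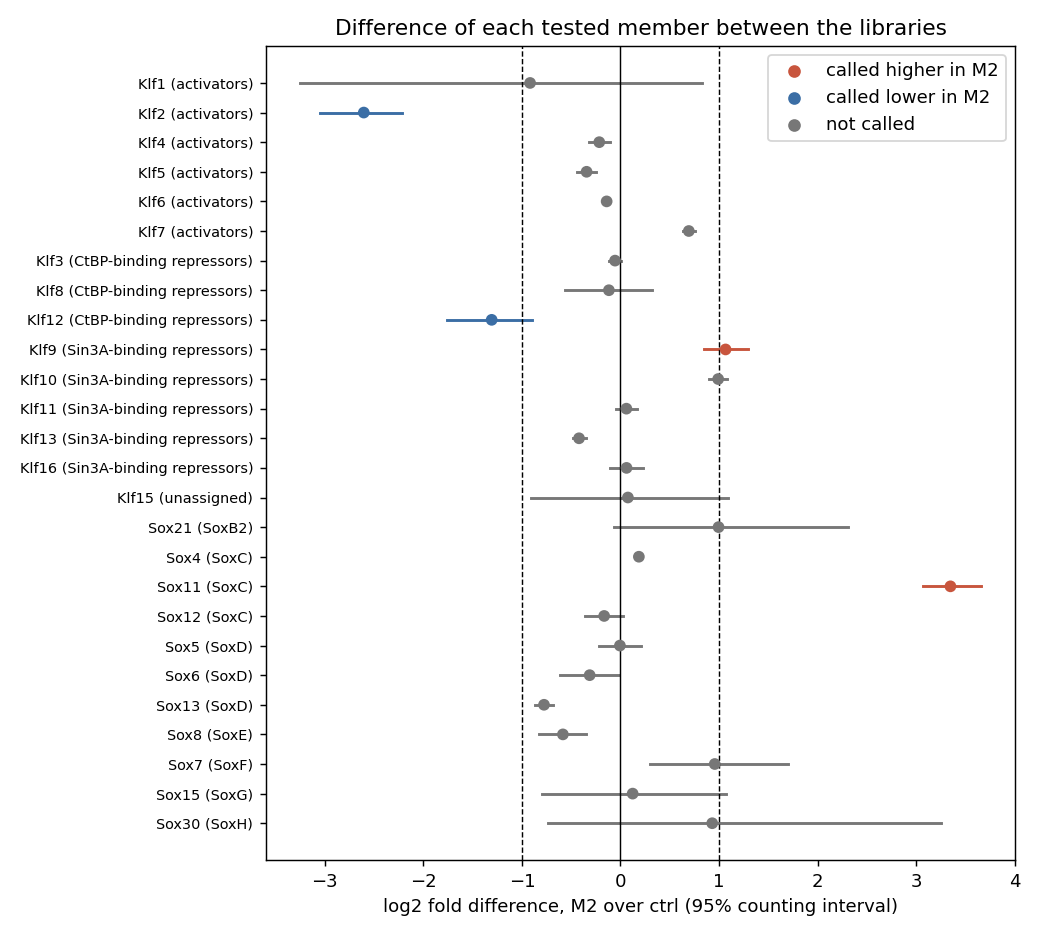
Log2 fold difference (M2 over ctrl) of the 26 tested members, with 95% Clopper-Pearson counting intervals as bars, ordered by subgroup. Red points were called higher, blue points lower and grey points not called, and dashed lines mark 2-fold; Sox11 and Klf2 lie farthest from 0, while Klf9 and Klf10 lie on either side of the threshold.

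To see how the calls depend on variation that a single library per group cannot show, edgeR's exactTest was given an assumed coefficient of biological variation. With 0.1 the same 4 members were called. With 0.2, Klf2 and Sox11 passed both thresholds (adjusted p = 1.51e-06 and 8.41e-11 in the edgeR exactTest), while Klf12 and Klf9 had adjusted p = 0.0535 and 0.120. With 0.4, Sox11 alone passed (adjusted p = 0.0222, edgeR exactTest), and Klf2 had adjusted p = 0.160.

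Genes that work with these factors were compared from short lists, without a set test. In either direction, 14.7% of all genes tested were called. The 9 Sp factors, which share the zinc fingers of the Klf family, had 6 tested genes with a median log2 value of -0.13. Sp6, a factor of skin and tooth epithelium, was called higher with 5 and 28 reads, and Sp1 (4158 and 3941 reads) and Sp3 (2402 and 2405 reads) were not called. None of 9 co-regulators was called. Among them, Ep300 had a value of -0.04 and Sin3a of 0.06, while Hdac2 had the highest, 0.57, and Kat2b the lowest, -0.56. None of 4 genes for components of ubiquitin ligases that act on Klf proteins was called either, and among them Smurf1 had a value of 0.30 and Fbxw7 of -0.18. Of the route from ERK5 through MEF2 factors to Klf2 and Klf4, none of 5 tested genes was called, and all 5 values were negative, with a median of -0.22. Mef2c had the lowest, -0.87 (2201 and 1262 reads), Mef2a had -0.36, and Mef2d, with the most reads, had -0.22. Map2k5 had -0.025 (-0.18 to 0.13) and Mapk7, the gene of ERK5, -0.019 (-0.26 to 0.22). These intervals included 0, so the reads do not fix the direction of either kinase gene.

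Of the 9 glucocorticoid-responsive genes, among which Klf9 was not counted, 1 was called higher and 2 lower (33.3%, beside 14.7% of all genes tested). These were the kinase gene Sgk1 (3199 and 7778 reads, log2 value 1.21), the phosphatase gene Dusp1 (9423 and 4804 reads, -1.04) and Zbtb16 (33 and 12 reads, -1.46). Fkbp5 (145 and 302 reads, 0.98, 0.70 to 1.29) was just under the 2-fold threshold. In the other direction Tsc22d3 (642 and 377 reads, -0.84, -1.02 to -0.65) was not called either. The median was -0.42, with 2 positive values, those of Sgk1 and Fkbp5, and 7 negative ones. Among the negative ones, Cdkn1c (17 and 17 reads) had -0.07 with an interval of -1.13 to 0.99, which does not fix a direction. Of the published Klf targets, 2 of 8 tested genes (25%, beside 14.7% of all genes tested) were called, both higher. Smad7, an inhibitor of TGF-β signalling that Klf10 and Klf11 are known to repress, had 661 and 1445 reads and a log2 value of 1.06 (0.93 to 1.19). Thbd, a target of Klf2 in endothelium, had 6 and 22 reads. Cdkn1a (980 and 1769 reads, 0.78) was not called, nor were Ccnd1 (11967 and 11337 reads, -0.15) and Lgals3 (2183 and 2322 reads, 0.02). Of the published Sox targets, 1 of 5 tested genes (20%, beside the same 14.7%) was called. With so few genes, these counts are not read as a result about the lists. Col2a1, a cartilage collagen gene that Sox5 and Sox6 help to activate, had 367 and 60 reads and a log2 value of -2.66 (-3.10 to -2.28). Ezh2, a target of Sox4, had 1142 and 1878 reads and a value of 0.65, and Tead2, a target of group C, had 992 and 755 reads and a value of -0.46.

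Several members are markers of other cell types, so transcripts of these cells were counted in the same libraries. Of all genes tested, 8.16% were called higher and 6.55% lower. The 7 basal genes had 208816 reads in ctrl against 219170 in M2, a log2 ratio of 0.0006 (-0.008 to 0.009) after scaling. Of their log2 values 3 were positive and 4 negative, with Krt5 at 0.50, Krt14 at -0.32 and Trp63 at 0.15. Among them 1, the oxytocin receptor gene Oxtr, was called lower. Of 8 luminal genes, 4 were called lower in M2, namely Elf5, Kit, Esr1 and Foxa1, and the median was -0.94. Not called were Krt8 (29888 and 36348 reads, log2 value 0.21), Epcam (0.06), Krt18 (-0.05) and Krt19 (14538 and 8899 reads, -0.78). Summed per length, the 8 luminal genes had a log2 ratio of -0.086 (-0.099 to -0.072). The 7 endothelial genes had 65 and 90 reads in all, and the sort of the basal cells had excluded cells with CD31, the product of Pecam1. Pecam1 was called higher (33 and 76 reads) and Cdh5 (11 and 2 reads) and Kdr (11 and 0 reads) lower, while Tek (2 and 3 reads), Emcn (3 and 0 reads), Tie1 (1 and 2 reads) and Esam (4 and 7 reads) were near 0. The 7 macrophage genes had 267 and 258 reads, nearly all from Cd68 and Csf1r, and Adgre1, Tyrobp, Fcer1g and Ptprc had 0 reads in both libraries. The 7 fibroblast genes had 9059 reads in ctrl against 3867 in M2, where Col1a2, Col3a1 and Pdgfrb were called lower and Dcn higher, and Col1a1 (2057 and 1097 reads) was not called. Of the 4 adipocyte genes, Lep had 198 and 6 reads and was called lower, while Adipoq, Plin1 and Cidec had at most 2 reads. The 5 genes of glia and melanocytes, cells that use Sox genes, had 982 and 905 reads, most of them from Mbp (833 and 741 reads) and Pmel (70 and 99 reads), and none was called. Of 6 erythroid genes, 5 had 0 reads in both libraries, and Alas2 had 39 and 21. The part of the luminal, fibroblast, adipocyte and endothelial genes in the values of the Klf and Sox genes was not tested, and in bulk RNA fewer cells of a type and less RNA per cell cannot be told apart. By flow cytometry, the paper reported a lower share of luminal cells after co-culture. Among these, it also reported a lower share with high levels of the surface protein Sca1. Whether those were the cultures sequenced is not stated.

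Some members overlap exons of genes on the opposite strand, and whether reads were assigned by strand is not stated, so the reads of such pairs cannot be told apart. The exons of Gm26735 overlap 54.6% of the Sox4 model, and Gm26735 had 10704 reads in ctrl against 12355 in M2, a log2 value of 0.14 beside 0.19 for Sox4. Gm26649 lies entirely within Klf7 exons, of which it covers 39.3%, and had 2413 and 4084 reads, a log2 value of 0.69 beside 0.69 for Klf7. Sox5os1 covers 9.25% of Sox5 with 6 and 8 reads. Sox11, Klf2, Klf9, Klf10 and Klf12 overlap no exon of another gene in the table.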

How the data were processed

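The authors deposited raw read counts per gene for both libraries, without normalization, from 3D cultures of sorted mammary basal cells. GRCm38 (mm10) is the build in the submitters' processing notes, and each of the 34 members overlaps the GENCODE M21 gene of its name, 27 with the same start and end. The aligner, the counter and the use of strand are not given in the sources used here. Counts were scaled by TMM in edgeR 4.0.16 (R 4.3.3), with factors of 1.02 for ctrl and 0.980 for M2. Log2 fold differences use a pseudocount of 1 read. Every gene with at least 10 reads over both libraries was tested by a two-sided exact binomial test, with Benjamini-Hochberg adjustment over all genes tested, and a call needed a 2-fold difference besides an adjusted p under 0.05. Intervals are 95% Clopper-Pearson intervals of the read share, or, for sums per length, normal approximations with Poisson errors. A count of 0 allows up to 3 reads. With no replicates no dispersion could be estimated, and the edgeR exactTest was run with assumed values. The test functions were tested on simulated data with counting noise only, which does not cover variation from culture to culture.

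Members and lists were chosen with earlier results of these data known. Each member was named by rule. Of the lists, named genes are those called and the 2 with the most reads, and any other was chosen after its values were seen. Alternatives covered scaling (DESeq2 1.42.0 size factors among them), filters, pseudocounts, thresholds and trends.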

Additional observations from a re-analysis of the deposited data

How the results depend on the processing

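No paired analysis was possible because ctrl and M2 are single libraries, and for the same reason no replicate could be left out. The Klf genes called higher in M2 numbered 0 instead of 1, and Klf9 lost its call, with total reads outside mitochondrial genes as library size. Under a 4-fold threshold 0 Klf genes were higher and 1 lower, and 616 and 494 of all genes were. When edgeR's exactTest assumed a coefficient of biological variation of 0.2, 0 Klf genes were higher and 1 lower, and 964 and 691 of all genes; with 0.4 there were 0 and 0, and 175 and 130. At least 1 CPM in both libraries left 797 and 583 of all genes. This filter tests fewer genes and leaves out those near 0 in either library. The count of Sox genes did not change under any of these alternatives. The log2 ratio of the Klf total was 0.021 from summed reads and -0.085 without scaling factors, and that of the Sox total 0.12 and 0.012.

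The alternatives were followed for members and for listed genes that were called or among the 2 with the most reads. Among these, signs changed for the following values near 0, and the cause was not tested. Outside mitochondrial genes Klf11 had -0.010, Klf16 -0.0085, Epcam -0.013, Lgals3 -0.050 and Sin3a -0.0087, and with total reads Epcam had -0.0027 and Lgals3 -0.039. With a trend over gene length removed, Klf3 had 0.030, Sox5 0.098, Ep300 0.062 and Lgals3 -0.015. Smad7 fell just under 2-fold with total reads (0.999) and without mitochondrial genes (0.988). Over all alternatives Sox11 ranged from 3.28 to 3.41 and Klf2 from -2.67 to -2.53 on the log2 scale. Removal of a trend with GC content was chosen after seeing the data, and no member's call or sign changed with it.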

Other observations

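The table was examined for genes that lie inside a gene of the opposite strand, as Gm26649 does in Klf7 and 98.8% of Gm26735 does in Sox4. There were 78 genes with at least 95% of their exon bases (500 or more) inside 1 gene of the opposite strand that had 1000 or more reads. Of these, 76 had 10 or more reads and 64 had 100 or more, and 1 had more reads than the gene around it. Whether reads were counted for both genes or divided by strand is not stated.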
